A study of Capra hircus with 6 samples.

Results

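The genes described here are those of the hypoxia response and of glycolysis: the oxygen-regulated HIF transcription factors and the enzymes that control them, HIF target genes, glucose and lactate transporters, and glycolytic enzymes. The list held 44 genes of the 16285 in the deposited tables, and all 44 were found. Of these, 42 were found by identifier. The other 2, LDHA and P4HA2, stood under the identifiers LDH-A and LOC102189116 and were found by the symbol that the deposited annotation pairs with them. RNA was sequenced from mesenchymal stem cells of goat (Capra hircus) fat, stromal cells that can form adipocytes in culture, in 3 libraries labelled as overexpressing YAP and 3 control libraries labelled wild type. Whether the controls carried an empty vector is uncertain. Both groups were labelled as treated for adipogenic differentiation, and no time or oxygen tension was given. The labels did not name the vector or promoter, the number of clones or goats, or whether replicates were separate cultures, so the p-values rest on a spread between samples that may be technical only. The series' design text speaks of a line overexpressing TAZ, the paralog of YAP, while the sample labels name YAP.

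YAP1 itself stood at 27.4 ± 1.57 FPKM in the libraries labelled YAP and 27.2 ± 1.54 FPKM in control libraries (SD, n = 3 each, limma adjusted p = 0.95). WWTR1, the gene of TAZ, stood at 21.4 ± 1.98 and 32.0 ± 3.38 FPKM in the same order and fell (limma adjusted p = 0.0013). The group is therefore called the libraries labelled YAP, and no direction below goes with a measured rise in YAP1 or WWTR1 RNA. FPKM scales counted fragments by the length of the gene model and by the library's total, so it allows genes of unequal length to be set side by side. Libraries held 32593380 to 37131015 counted fragments in the libraries labelled YAP and 33871397 to 34967990 in controls. All 9 stromal markers passed the filter on low values given below, and their summed level was 10210 to 10560 FPKM in the libraries labelled YAP and 6291 to 6897 FPKM in controls. Of these, 5 rose and 2 fell: COL1A1 and DCN, the most abundant, rose, and ENG and NT5E fell (log2 change -0.88 and -0.42). At the threshold given below, 12.9% of all tested genes rose and 23.0% fell, so the share of falls among stromal markers was near that of all genes. Of 8 leukocyte markers, 3 passed; PTPRC, CD74, AIF1 and TYROBP had at most 3 reads in any library, CD14 rose and CD68 fell, and the sums were 30.2 to 32.1 and 22.2 to 25.3 FPKM in the same order. Of 4 endothelial markers 0 passed, CDH5 had at most 1 read, and the sums were 0.214 to 0.293 and 0.336 to 0.533 FPKM. PECAM1 averaged 0.0446 and 0.369 FPKM in the same order, VWF 0.103 and 0.0321 FPKM, and TEK 0.0931 and 0.0577 FPKM, so the endothelial markers had no common direction. Of 8 adipocyte markers 3 passed, PPARG had at most 4 reads, and the sums were 12.3 to 14.7 and 19.5 to 24.1 FPKM. CIDEC fell (9.56 and 18.3 FPKM), LIPE rose (2.16 and 1.01 FPKM) and FABP4 was not called. The part of these markers in the results was not tested.

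Cells sense oxygen through the HIF pathway. When oxygen is plentiful, the prolyl hydroxylases EGLN1, EGLN2 and EGLN3 mark the HIF alpha subunits HIF1A and EPAS1, and VHL, the substrate receptor of a ubiquitin ligase, then sends them to degradation. When oxygen is scarce, the alpha subunits persist, pair with ARNT and switch on genes for glucose uptake, glycolysis, pH control, blood vessel growth and mitophagy. HIF alpha subunits are controlled largely as proteins, which RNA sequencing does not measure. In fat, the pathway is known to be active where tissue growth outpaces blood supply.

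The listed hypoxia and glycolysis genes were mostly higher in the libraries labelled YAP. The list was chosen with earlier results of these data known, so its counts describe the listed genes only. A change was called at a limma adjusted p under 0.05 over the 10761 genes that reached 1 FPKM in 3 or more libraries. Of the 43 members that passed this filter, 29 were higher and 2 were lower, against 12.9% of all tested genes called higher and 23.0% called lower, or 35.9% in either direction. Median-of-ratios scaling divides each library by its median ratio to the mean profile of all libraries. After it 32 members were higher and 2 lower, against 16.1% and 13.5% of all tested genes. Over all genes, falls were 64.0% of the calls before that scaling and 45.6% after it. A rise of at least 2-fold on the log2(FPKM + 1) scale was called in 10 members and a fall of that size in 0, against 2.31% and 0.79% of all tested genes. The FPKM ranges were separate in 38 of the 43 tested members and in 48.3% of all tested genes. The median log2 change of the tested members was 0.38, and that of all tested genes was -0.10. ANKRD37 passed the filter only through the libraries labelled YAP. Leaving it out gave 28 higher and 2 lower of 42. In bulk RNA, fewer cells of a type and less RNA per cell cannot be told apart.

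**Figure D1:**
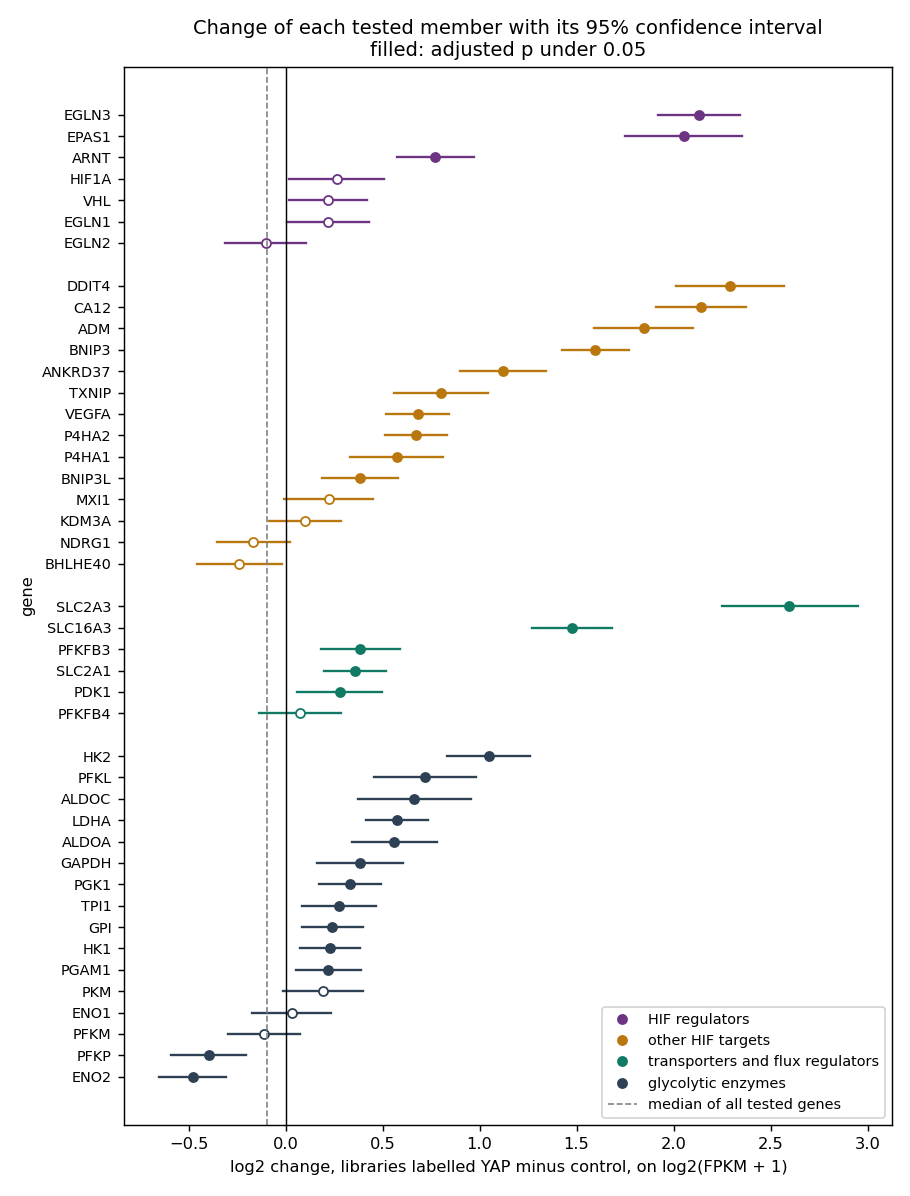
Log2 change of each of the 43 tested members on the log2(FPKM + 1) scale (x axis, libraries labelled YAP minus control), with its 95% confidence interval from limma. Rows are genes grouped by role, filled points passed the adjusted threshold, and the dashed line is the median of all tested genes (-0.10); SLC2A3 (2.60), DDIT4 (2.29), CA12 (2.14) and EGLN3 (2.13) lie farthest to the right, and PFKP (-0.40) and ENO2 (-0.48) are the filled points left of 0.

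Among the HIF subunits, EPAS1 and ARNT rose, while HIF1A was not called. EPAS1, the HIF alpha subunit first described in endothelium, had 232, 187 and 257 FPKM in the libraries labelled YAP, against 47.2, 48.7 and 65.4 FPKM in controls. Every library labelled YAP lay above every control, and the ratio of means was 4.195 (log2 change 2.05, SE 0.14, limma adjusted p = 7.6e-07). HIF1A had 71.8, 69.0 and 81.4 FPKM in the libraries labelled YAP, against 52.4, 61.4 and 71.7 FPKM in controls. The groups overlapped, and the change was not called in the deposited FPKM (log2 change 0.26, 95% confidence interval 0.02 to 0.51, limma adjusted p = 0.086). With median-of-ratios scaling it was called (limma adjusted p = 0.034) and likewise when control replicate 3 was left out (limma adjusted p = 0.016). EPAS1 made up 75.1% ± 1.8 of the summed FPKM of the alpha subunits in the libraries labelled YAP and 46.4% ± 1.9 in controls (SD, n = 3 each). EPAS1 thus stood above HIF1A in the libraries labelled YAP and slightly below it in controls. ARNT, the shared partner subunit, had 11.5, 10.8 and 11.9 FPKM in the libraries labelled YAP, against 5.83, 6.11 and 6.91 FPKM in controls. It rose without overlap (log2 change 0.77, SE 0.09, limma adjusted p = 7.4e-05).

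Of the oxygen sensors and their ligase, only EGLN3 was called in the deposited FPKM. EGLN3, a prolyl hydroxylase whose own gene is a classic HIF target, had 8.18, 9.26 and 8.86 FPKM in the libraries labelled YAP, against 1.28, 1.37 and 1.04 FPKM in controls. The groups lay far apart, with a ratio of means of 7.12 (log2 change 2.13, SE 0.10, limma adjusted p = 3.6e-08). EGLN1, the main hydroxylase of HIF in most cells, averaged 14.5 ± 0.83 FPKM in the libraries labelled YAP and 12.4 ± 1.45 FPKM in controls (SD, n = 3 each, limma adjusted p = 0.10). EGLN2 averaged 24.4 ± 2.38 and 26.3 ± 2.30 FPKM in the same order (limma adjusted p = 0.42). VHL averaged 6.66 ± 0.16 FPKM in the libraries labelled YAP and 5.59 ± 0.54 FPKM in controls (limma adjusted p = 0.084). EGLN1 and VHL were called higher with median-of-ratios scaling (limma adjusted p = 0.030 and 0.028), as they were when control replicate 3 was left out (limma adjusted p = 0.035 and 0.039). With HIF1A this made 6 of 7 regulators higher with that scaling, in place of 3. Of all tested genes, 16.1% were higher with that scaling and 12.9% without it. EGLN3 held 18.4% ± 0.86 of the summed FPKM of the 3 hydroxylases in the libraries labelled YAP and 3.08% ± 0.37 in controls. EGLN2 was the most abundant of the 3 in every library, with 47.7% to 53.9% of that sum in the libraries labelled YAP and 61.4% to 69.3% in controls.

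**Figure D2:**
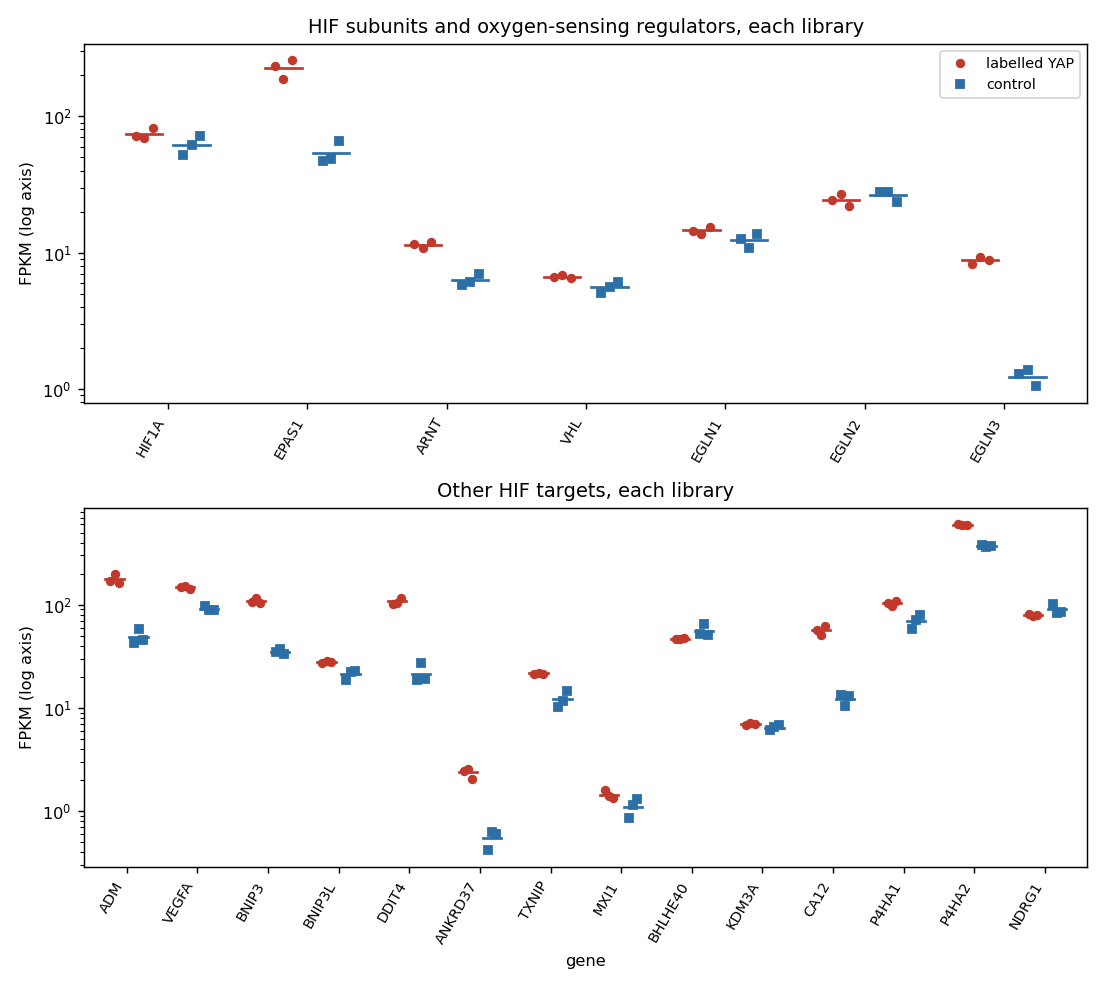
FPKM in each library on a log axis (y) for the HIF subunits and regulators (upper panel) and 14 other HIF targets (lower panel); red circles are the 3 libraries labelled YAP, blue squares the 3 controls, and bars the group means. CA9 is not drawn because it had 0 reads in control replicate 2. EPAS1 (187 to 257 against 47.2 to 65.4 FPKM) and EGLN3 (8.18 to 9.26 against 1.04 to 1.37 FPKM) separate most among the regulators.

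Of the 14 other HIF targets that passed the filter, 10 rose and 0 fell in the deposited FPKM. Of all tested genes, 12.9% rose and 23.0% fell. The median log2 change of these HIF targets was 0.68. Without ANKRD37, which passed only through the libraries labelled YAP, 9 of 13 rose, and 4 in place of 5 were past 2-fold. At an unadjusted p under 0.05 limma gave 10 higher and 1 lower. The count of 10 higher was the same in each fit without a library and under each scaling tried. DDIT4, an inhibitor of mTOR signalling that is induced by hypoxia and other stress, had 102, 105 and 116.6 FPKM in the libraries labelled YAP, against 18.6, 27.1 and 18.9 FPKM in controls. CA12, a membrane carbonic anhydrase that acts on extracellular pH, had 56.6, 51.1 and 62.6 FPKM in the libraries labelled YAP, against 13.2, 10.3 and 12.9 FPKM in controls. Neither gene overlapped between groups, and the ratios of means were 5.01 for DDIT4 and 4.68 for CA12 (limma adjusted p = 1.7e-07 and 7.5e-08). CA9, the other extracellular carbonic anhydrase of the list and a common hypoxia marker in tumours, was close to absent. Its reads numbered 8, 8 and 1 in the libraries labelled YAP, against 2, 0 and 3 in controls, so it was not tested. The count of 0 in control replicate 2 allows up to 0.0406 FPKM, a limit that covers counting error only.

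The secreted factors and the mitophagy genes also rose. ADM, which encodes the vasodilator peptide adrenomedullin, had 171, 197 and 161 FPKM in the libraries labelled YAP, against 42.4, 57.7 and 45.5 FPKM in controls. VEGFA, the main growth factor of blood vessels, had 149, 150.3 and 143 FPKM in the libraries labelled YAP, against 97.3, 88.7 and 89.4 FPKM in controls. Both rose without overlap, ADM by a ratio of means of 3.63 and VEGFA by 1.61 (limma adjusted p = 4.8e-07 and 4.0e-05). BNIP3, a mitophagy receptor of the outer mitochondrial membrane, had 106, 116 and 103 FPKM in the libraries labelled YAP, against 35.0, 36.9 and 33.6 FPKM in controls. Its relative BNIP3L, which also marks mitochondria for removal, had 27.1, 28.2 and 28.0 FPKM in the libraries labelled YAP, against 18.6, 22.1 and 22.7 FPKM in controls. Both were called higher (log2 change 1.60, SE 0.08, for BNIP3 and 0.38, SE 0.09, for BNIP3L).

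The collagen prolyl hydroxylases P4HA1 and P4HA2, which modify proline in new collagen chains, rose by like amounts. P4HA2 had 604, 590 and 587 FPKM in the libraries labelled YAP, against 380, 364 and 372 FPKM in controls. P4HA1 had 104, 96.2 and 109 FPKM in the libraries labelled YAP, against 57.6, 70.9 and 79.7 FPKM in controls. Both pairs of ranges were separate (log2 change 0.67, SE 0.07, for P4HA2 and 0.57, SE 0.11, for P4HA1). TXNIP, which binds thioredoxin and restrains glucose uptake, had 21.3, 22.0 and 21.5 FPKM in the libraries labelled YAP, against 10.1, 11.7 and 14.4 FPKM in controls (limma adjusted p = 2.5e-04). ANKRD37, an ankyrin repeat gene known as a HIF target, had 2.46, 2.58 and 2.06 FPKM in the libraries labelled YAP, against 0.415, 0.632 and 0.596 FPKM in controls. It rested on only 19 to 119 reads a library, and its groups were apart (limma adjusted p = 8.5e-06).

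Of the tested HIF targets, 4 were not called in the deposited FPKM. BHLHE40, a transcriptional repressor linked to the circadian clock, had 46.1, 47.0 and 47.3 FPKM in the libraries labelled YAP, against 51.5, 65.7 and 50.3 FPKM in controls. It was called lower when control replicate 3 was left out (log2 change -0.31, limma adjusted p = 0.041) and was not called with all libraries (log2 change -0.24, limma adjusted p = 0.084). NDRG1, a stress-responsive gene that many cell types induce in hypoxia, had 81.8, 78.0 and 79.8 FPKM in the libraries labelled YAP, against 101, 83.4 and 85.7 FPKM in controls (limma adjusted p = 0.16). KDM3A, a histone demethylase, averaged 6.98 ± 0.16 FPKM in the libraries labelled YAP and 6.45 ± 0.38 FPKM in controls (limma adjusted p = 0.38). MXI1, an antagonist of MYC, averaged 1.44 ± 0.15 FPKM in the libraries labelled YAP and 1.10 ± 0.23 FPKM in controls (limma adjusted p = 0.12). The 95% confidence intervals of the log2 change were -0.36 to 0.02 for NDRG1, -0.09 to 0.29 for KDM3A and -0.01 to 0.45 for MXI1.

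Glucose and lactate transporters showed some of the largest changes of the list. SLC2A3, a high-affinity glucose transporter, had 39.0, 28.8 and 47.8 FPKM in the libraries labelled YAP, against 6.26, 4.53 and 5.53 FPKM in controls. SLC2A1, the transporter of basal glucose uptake, had 73.5, 71.0 and 75.05 FPKM in the libraries labelled YAP, against 59.4, 55.7 and 55.6 FPKM in controls. Both rose without overlap, by ratios of means of 7.08 and 1.29 (limma adjusted p = 4.0e-07 and 0.0030). SLC2A1 was the higher of the pair in every library, but SLC2A3 made up 34.1% ± 5.1 of their sum in the libraries labelled YAP and 8.70% ± 1.0 in controls. SLC16A3, which exports lactate, had 60.2, 60.4 and 53.4 FPKM in the libraries labelled YAP, against 22.6, 20.1 and 18.1 FPKM in controls. Its ratio of means was 2.86, again without overlap (log2 change 1.48, SE 0.09, limma adjusted p = 5.5e-07). SLC16A1, a related lactate carrier outside the list, averaged 16.6 ± 1.12 FPKM in the libraries labelled YAP and 16.2 ± 1.74 FPKM in controls (limma adjusted p = 0.77).

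Of the 16 glycolytic enzymes, 11 rose and 2 fell, against 12.9% and 23.0% of all tested genes. The median log2 change of the enzymes was 0.26. Most changes were small. The summed FPKM of the 16 was 10084, 10830 and 9673 in the libraries labelled YAP, against 8742, 8849 and 7969 in controls, or 2.32% ± 0.045 and 1.88% ± 0.062 of all FPKM in the same order (SD, n = 3 each). HK2, the hexokinase isoform induced by hypoxia and insulin, had 17.6, 15.7 and 18.4 FPKM in the libraries labelled YAP, against 7.17, 7.63 and 8.73 FPKM in controls. It was the 1 enzyme past 2-fold on the log2(FPKM + 1) scale (log2 change 1.05, SE 0.10, limma adjusted p = 1.1e-05). HK1, the housekeeping isoform, was more abundant in every library, with 93.6, 93.4 and 94.9 FPKM in the libraries labelled YAP, against 83.4, 78.0 and 78.6 FPKM in controls (limma adjusted p = 0.026). HK2 held 15.5% ± 0.99 of the hexokinase sum in the libraries labelled YAP and 8.94% ± 1.0 in controls.

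The phosphofructokinase isoforms, which catalyse the committed step of glycolysis, moved in opposite directions. PFKL had 68.6, 55.2 and 63.3 FPKM in the libraries labelled YAP, against 45.4, 33.7 and 34.0 FPKM in controls, and rose (log2 change 0.72, SE 0.12, limma adjusted p = 8.7e-04). PFKP had 83.0, 87.8 and 80.4 FPKM in the libraries labelled YAP, against 123, 109 and 101 FPKM in controls, and fell (log2 change -0.40, SE 0.09, limma adjusted p = 0.0049). Neither isoform overlapped between groups, and both calls held in every alternative fit. PFKM averaged 5.07 ± 0.20 FPKM in the libraries labelled YAP and 5.55 ± 0.17 FPKM in controls (limma adjusted p = 0.33). The sum of the 3 isoforms was 151 ± 4.97 FPKM in the libraries labelled YAP and 154 ± 17.8 FPKM in controls (SD, n = 3 each), ranges that overlapped. PFKP was the leading isoform, with 55.4% ± 3.4 of that sum in the libraries labelled YAP and 72.0% ± 1.4 in controls. The gene model behind the PFKL values was short, 353 bases, and held 403 to 895 reads a library. PFKFB3, which makes the activator of phosphofructokinase, had 9.64, 8.10 and 9.30 FPKM in the libraries labelled YAP, against 6.91, 6.78 and 6.27 FPKM in controls (limma adjusted p = 0.0076, and 0.057 without YAP replicate 1). Its relative PFKFB4 averaged 6.71 ± 0.36 and 6.33 ± 0.71 FPKM in the same order (limma adjusted p = 0.56).

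**Figure D3:**
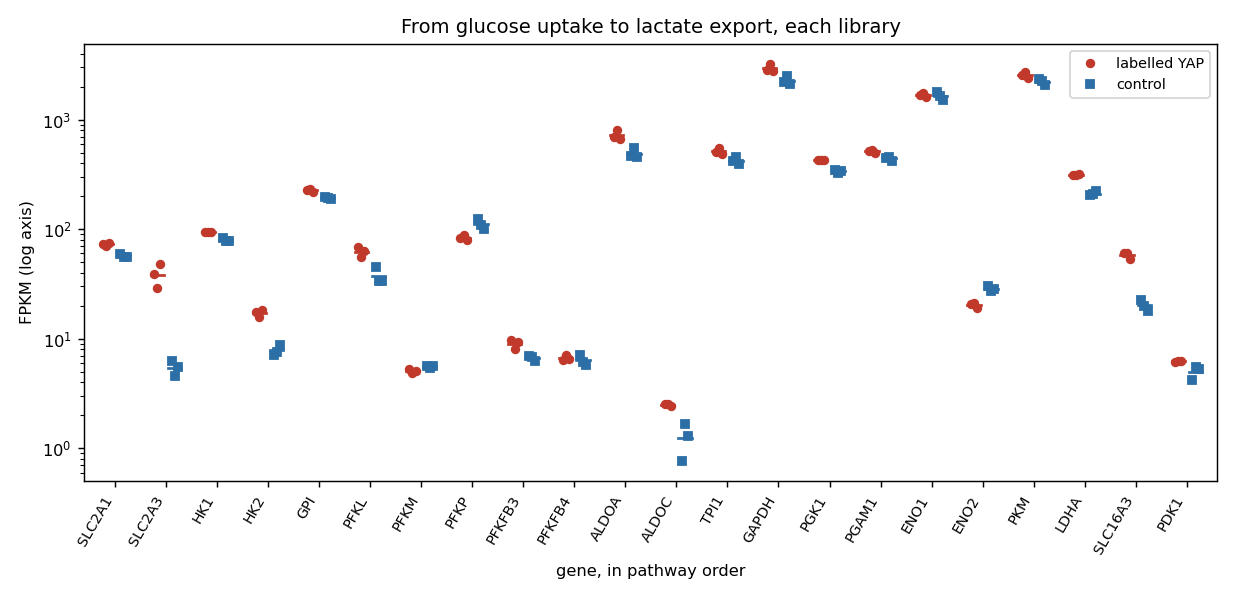
FPKM in each library on a log axis (y) for transporters, enzymes and flux regulators in pathway order, from glucose uptake to lactate export (x); red circles are the 3 libraries labelled YAP, blue squares the 3 controls, and bars the group means. SLC2A3, HK2 and SLC16A3 show the widest gaps, and PFKP and ENO2 lie lower in the libraries labelled YAP. GAPDH, PKM and ENO1, the most abundant of the 22, have ratios of means of 1.304, 1.142 and 1.021.

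Lower in the pathway, aldolase, phosphoglycerate kinase and lactate dehydrogenase rose. ALDOA, which splits fructose bisphosphate, had 699, 801 and 669 FPKM in the libraries labelled YAP, against 465, 546 and 459 FPKM in controls (log2 change 0.56, SE 0.10, limma adjusted p = 0.0013). LDHA, which reduces pyruvate to lactate, had 314, 312 and 320.5 FPKM in the libraries labelled YAP, against 204, 208 and 222 FPKM in controls (log2 change 0.58, SE 0.07, limma adjusted p = 1.4e-04). Neither overlapped between groups. ALDOC, a minor aldolase here, averaged 2.50 ± 0.07 FPKM in the libraries labelled YAP and 1.24 ± 0.46 FPKM in controls and rose (limma adjusted p = 0.0029). Its ratio of means was 2.016, but its log2 change on the log2(FPKM + 1) scale was 0.66. It gave 0.347% of the aldolase sum in the libraries labelled YAP and 0.250% in controls. PGK1, the first ATP-forming kinase of the pathway, averaged 428 ± 3.61 FPKM in the libraries labelled YAP and 340.0 ± 10.2 FPKM in controls (log2 change 0.33, SE 0.07, limma adjusted p = 0.0047).

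The enolases differed. ENO2, the form best known from neurons, had 20.6, 21.0 and 19.2 FPKM in the libraries labelled YAP, against 30.3, 27.3 and 28.4 FPKM in controls, and fell (log2 change -0.48, SE 0.08, limma adjusted p = 8.3e-04). ENO1, the ubiquitous form, had 1688, 1768 and 1603 FPKM in the libraries labelled YAP, against 1802, 1640 and 1517 FPKM in controls. These ranges overlapped (log2 change 0.03, 95% confidence interval -0.17 to 0.24, limma adjusted p = 0.81), and the sign turned without control replicate 3 (-0.028) or YAP replicate 2 (-0.003). ENO1 supplied over 98% of the summed FPKM of ENO1 and ENO2 in every library. That sum leaves out ENO3, an enolase outside the list. ENO3 averaged 21.1 ± 0.57 FPKM in the libraries labelled YAP and 15.2 ± 1.64 FPKM in controls and rose (limma adjusted p = 0.0025). PKM, pyruvate kinase of non-liver tissues, had 2549, 2700 and 2384 FPKM in the libraries labelled YAP, against 2362, 2266 and 2054 FPKM in controls. Its groups lay apart, but the change was not called in the deposited FPKM (log2 change 0.19, SE 0.10, limma adjusted p = 0.14). It was called higher with fixed-sum scaling (limma adjusted p = 0.018) and with the replicate block (limma adjusted p = 0.0032).

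The other enzymes rose by small amounts, and their calls were lost in some fits without a library. GAPDH, often used as a reference gene, had 2865, 3232 and 2774 FPKM in the libraries labelled YAP, against 2194, 2493 and 2118 FPKM in controls. This was a ratio of means of 1.304 without overlap (limma adjusted p = 0.013), lost without control replicate 1 (limma adjusted p = 0.062) or YAP replicate 1 (limma adjusted p = 0.051). GPI and TPI1, which interconvert sugar phosphates, and the mutase PGAM1 rose by ratios of means of 1.18, 1.21 and 1.16 (limma adjusted p = 0.022, 0.029 and 0.043). PDK1, which blocks pyruvate entry into mitochondria, averaged 6.22 ± 0.06 FPKM in the libraries labelled YAP and 4.98 ± 0.66 FPKM in controls (limma adjusted p = 0.047). Without YAP replicate 1, 6 of the 16 enzymes were higher, and HK1, GPI, TPI1, PGAM1 and PDK1 gave limma adjusted p = 0.11, 0.11, 0.099, 0.17 and 0.13. Without YAP replicate 2 or control replicate 3, 7 enzymes were higher, without control replicate 1 or 2, 8, and without YAP replicate 3, 9. Over all tested genes, rises numbered 1392 with all libraries and 1024 to 1333 without 1 library, the fewest without YAP replicate 1. The sources used here do not state how reads from near-identical copies were counted, and GAPDH, PGAM1 and ENO1 belong to genes with many processed copies in mammals, so their values carry that uncertainty.

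The roles differed in the size of their changes. The median log2 change was 0.68 for the other HIF targets, 0.37 for the 6 transporters and flux regulators, and 0.26 for the glycolytic enzymes and for the HIF regulators, against -0.10 for all tested genes. After median-of-ratios scaling the medians were 0.77, 0.46, 0.35 and 0.36, against -0.02 for all tested genes. Of the 10 members past 2-fold, 5 were other HIF targets (DDIT4, CA12, ADM, BNIP3 and ANKRD37), 2 were transporters (SLC2A3 and SLC16A3), 2 were regulators (EPAS1 and EGLN3) and 1 was an enzyme (HK2). ANKRD37 passed the filter only through the libraries labelled YAP. Without it, 4 other HIF targets were past 2-fold and the median of that list was 0.67. These medians describe the lists and were not tested against each other. By level, GAPDH, PKM and ENO1 ranked in the top percentile of genes in both groups, whereas EGLN3 ranked at percentile 65.6 in the libraries labelled YAP and 36.6 in controls.

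**Figure D4:**
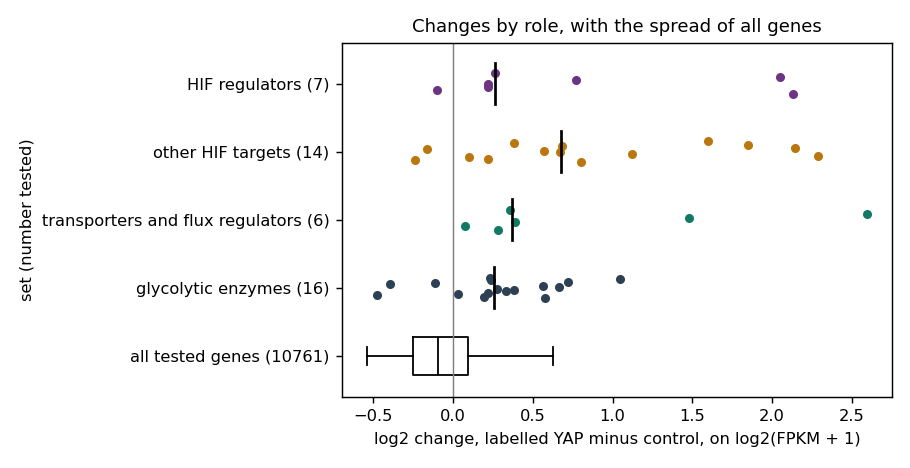
Log2 change on the log2(FPKM + 1) scale (x axis) of the tested members by role, one point per gene with a black bar at the median, above a box of all 10761 tested genes (box, quartiles from -0.25 to 0.10; whiskers, 5th to 95th percentile). The other HIF targets spread from -0.24 to 2.29 and the glycolytic enzymes from -0.48 to 1.05.

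Ratios of related genes within a library do not depend on how that library was scaled. Of 16 pairs, 14 could be computed, since CA9 and PDK4 had no reads in at least 1 library. In 12 of the 14 the ratio did not overlap between groups. The share among other gene pairs was not computed. For single genes, the FPKM ranges were separate in 48.3% of all tested genes. Each of those 12 gave p = 0.1 by an exact two-sided permutation test, the smallest that 3 against 3 libraries allow (adjusted p = 0.117 over the 14 pairs). The log2 ratio of EGLN3 to EGLN1 was -0.73 ± 0.14 in the libraries labelled YAP and -3.33 ± 0.37 in controls, a difference of 2.60. SLC2A3 over SLC2A1 gave -0.96 ± 0.33 in the libraries labelled YAP and -3.40 ± 0.20 in controls. EPAS1 over HIF1A gave 1.60 ± 0.14 in the libraries labelled YAP and -0.21 ± 0.11 in controls. Within each of these families, then, the balance differed between groups in every library. BNIP3 over BNIP3L gave 1.96 ± 0.08 in the libraries labelled YAP and 0.74 ± 0.17 in controls, and PFKP over PFKL gave 0.43 ± 0.21 and 1.57 ± 0.12 in the same order. LDHA over LDHB, the muscle-type over the heart-type subunit of lactate dehydrogenase, gave 0.53 ± 0.07 in the libraries labelled YAP and -0.35 ± 0.05 in controls. LDHA was thus the higher of the 2 subunit genes in every library labelled YAP and the lower in every control. P4HA2 over P4HA1 overlapped, at 2.53 ± 0.09 in the libraries labelled YAP and 2.43 ± 0.26 in controls (exact permutation p = 0.6), and PFKP over PFKM overlapped as well (exact permutation p = 0.2).

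**Figure D5:**
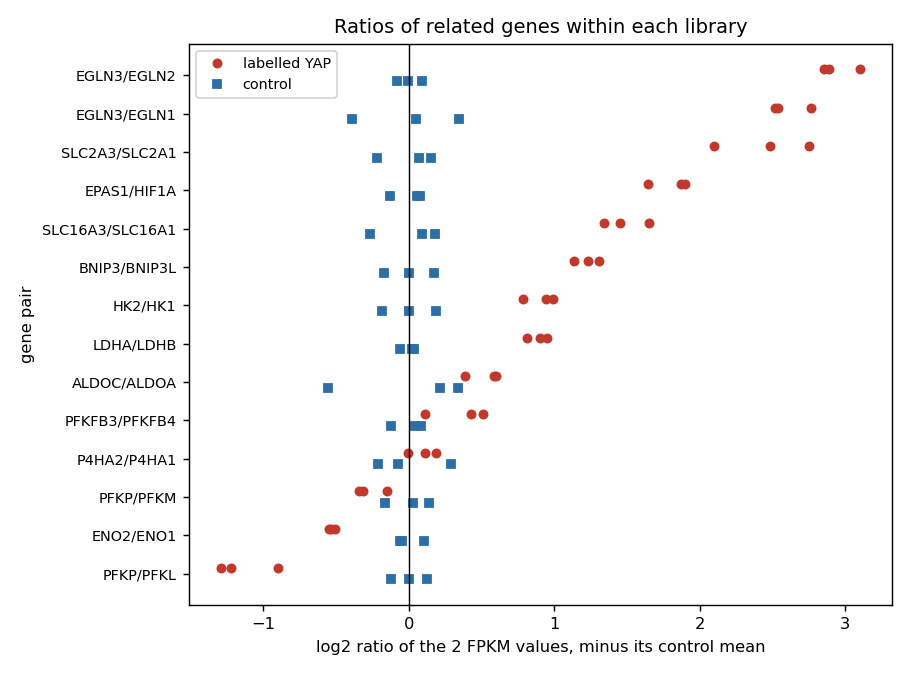
Log2 ratio of the FPKM of 2 related genes in each library, minus the mean of that ratio in controls (x axis), for 14 gene pairs (y axis); red circles are the 3 libraries labelled YAP and blue squares the 3 controls. The pairs with EGLN3 and with SLC2A3 lie farthest right, by 2.95, 2.60 and 2.44, and PFKP over PFKL farthest left, by -1.14.

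Most of the other hypoxia-inducible genes chosen for comparison were higher too. That list was made with earlier results of these data known. Of 30 tested, 20 rose, 2 fell and 8 were not called in the deposited FPKM, against 12.9% higher and 23.0% lower of all tested genes, and of the 27 whose means reached 1 FPKM in both groups, 17 rose and 2 fell. ANGPTL4, a secreted inhibitor of lipoprotein lipase, averaged 14.8 ± 1.05 FPKM in the libraries labelled YAP and 4.23 ± 0.63 FPKM in controls (limma adjusted p = 6.0e-07). VLDLR, a lipoprotein receptor, averaged 11.1 ± 0.61 and 3.91 ± 0.56 FPKM in the same order (limma adjusted p = 2.7e-06). The glycoprotein hormone gene STC2 (1.81 ± 0.12 and 0.148 ± 0.0781 FPKM) and the nuclear receptor gene RORA (1.97 ± 0.18 and 0.437 ± 0.0685 FPKM) also rose, but passed the filter only through the libraries labelled YAP. Among those that fell was the glycogen branching enzyme gene GBE1, named after its values were seen, at 33.4 ± 0.89 FPKM in the libraries labelled YAP and 57.2 ± 6.73 FPKM in controls (limma adjusted p = 8.9e-05). The deposited annotation places 60 tested genes that were not members in the HIF signalling pathway. Of these, 14 rose and 11 fell, with a median log2 change of -0.04.

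Partners and brakes of HIF included falls but no called rise. Of 12 tested, 0 rose and 5 fell in limma, also after median-of-ratios scaling and in limma-voom. At an unadjusted p under 0.05 limma gave 0 higher and 6 lower. Of all tested genes, 23.0% were lower, and 13.5% after median-of-ratios scaling. The 7 not called included HIF1AN, SIAH2, EP300 and CREBBP, whose log2 changes were 0.03, 0.08, 0.05 and 0.02. CITED2, which competes with HIF alpha for a coactivator and is itself a HIF target, averaged 8.11 ± 0.30 FPKM in the libraries labelled YAP and 18.96 ± 0.45 FPKM in controls (log2 change -1.13, limma adjusted p = 1.0e-06). HSP90AA1, a chaperone of HIF1A, averaged 253.5 ± 18.0 and 384 ± 25.8 FPKM in the same order (limma adjusted p = 3.1e-04). ARNT2, the relative of ARNT, averaged 6.01 ± 0.73 FPKM in the libraries labelled YAP and 10.2 ± 0.75 FPKM in controls (limma adjusted p = 4.0e-04). CUL2, the cullin of the VHL ligase, and ELOC, an adaptor of that ligase, fell as well (log2 change -0.44 and -0.33, limma adjusted p = 0.0032 and 0.0070); ELOC was named after its values were seen.

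Other genes of carbon metabolism were counted beside glycolysis, against 12.9% higher and 23.0% lower of all tested genes (16.1% and 13.5% after median-of-ratios scaling). Of 17 tricarboxylic acid cycle genes, 0 rose and 7 fell in limma (0 higher and 9 lower at an unadjusted p under 0.05), 7 fell in limma-voom, 4 fell after median-of-ratios scaling, and 3 fell without YAP replicate 1, a fit in which 1387 of all 10761 tested genes fell. Citrate synthase (CS) averaged 74.2 ± 2.71 FPKM in the libraries labelled YAP and 93.3 ± 2.32 FPKM in controls (limma adjusted p = 0.0047), and IDH3A and DLST fell by 0.39 and 0.30 on the log2 scale. Of 12 genes around pyruvate dehydrogenase, 3 rose and 3 fell, the falls a share near that of all tested genes. The mitochondrial pyruvate carrier genes MPC1 and MPC2 rose (log2 change 0.51 and 0.45), as did pyruvate carboxylase, PC (0.39), whereas the dehydrogenase subunit DLD fell by 0.40 on the log2 scale (limma adjusted p = 0.0083). The other 2 that fell, PDHB and DLAT, were named after their values were seen and lost their calls with median-of-ratios scaling (limma adjusted p = 0.068 and 0.11). In the pentose phosphate pathway 3 of 7 rose, among them PGD and TKT (log2 change 0.31 and 0.24), and 0 fell; fits without 1 library gave 0 to 3. Of 12 other glycolytic and lactate genes, the enolase ENO3 (log2 change 0.45) and the mutase PGAM2 (0.40) rose, and LDHB (-0.31) and PKLR (-0.37) fell. PKLR passed the filter only through the controls. The falls of LDHB and PKLR were not called with median-of-ratios scaling (limma adjusted p = 0.059 and 0.055), and fits without 1 library gave 1 to 2 rises and 0 to 2 falls.

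Genes linked to single members by family or function showed no common direction. Of all tested genes, 12.9% were higher and 23.0% lower. The shares of falls in the TXNIP and VEGF lists were near the latter. Of 8 tested genes linked to TXNIP, 2 rose and 2 fell. The arrestin relative ARRDC4 (log2 change 0.58) and the glucose-sensing factor MLXIP (0.29) rose. The thioredoxin reductase TXNRD1 (-0.94) and thioredoxin, TXN (-0.53), fell. The other arrestin relatives, ARRDC1, ARRDC2 and ARRDC3, were not called. Fits without 1 library gave 1 to 3 rises and 2 falls. Of 4 tested VEGF family genes, the coreceptor NRP2 rose (log2 change 0.44) and NRP1 fell by 1.51 on the log2 scale (limma adjusted p = 3.1e-06). NRP1 averaged 5.77 ± 0.71 FPKM in the libraries labelled YAP and 18.4 ± 2.91 FPKM in controls. VEGFC, a growth factor of lymphatic vessels, averaged 92.3 ± 4.77 and 95.8 ± 5.22 FPKM in the same order (limma adjusted p = 0.62). The receptor KDR had at most 1 read in any library. Of 7 tested relatives of MXI1 and BHLHE40, limma called 0 in either direction, as did limma-voom, with 0 higher and 3 lower at an unadjusted p under 0.05 in each. Without 1 library 0 to 1 were lower, and with the replicate block 3. MYC, the most abundant, averaged 24.99 ± 0.82 FPKM in the libraries labelled YAP and 28.3 ± 0.93 FPKM in controls (limma adjusted p = 0.095).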

How the data were processed

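The authors deposited FPKM values in separate tables for the control libraries and the libraries labelled YAP, with 16285 gene identifiers in each. Per the submitters' processing notes, fastp, HISAT2 and HTSeq were used, without versions or settings. The sources used here do not give the genome build, the strand setting or how reads with several possible genes were treated. The YAP table held 6 more per-sample columns named TAZ and pcDNA, which match no sample title, and these were not used. pcDNA is also the name of a family of expression vectors. On first inspection the pcDNA columns showed the same summary values as the control columns, so it is uncertain whether the controls, labelled wild type, carried an empty vector.

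Genes were found by identifier, then by the symbol in the deposited annotation, then by synonym in RefSeq's table for assembly ARS1.2. Whole reads were recovered from the steps between FPKM values. They were whole within 0.05 reads for 100.0% of values above 0, and gave library totals and gene lengths. Replicates differed by more than counting noise (chi-square per gene 7.92 to 31.9).

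Genes that reached 1 FPKM in 3 or more libraries were compared on the log2(FPKM + 1) scale, whose pseudocount is 1, with limma 3.58.1 in R 4.3.3 (lmFit and eBayes with a variance trend, two-sided). P-values were adjusted by the Benjamini-Hochberg method over 10761 genes. Log2 changes on this scale understate those of low genes. Ratios within families were compared by exact permutation. All members were named. Of the other lists, up to 4 members with the smallest adjusted p were named, or the most abundant where none passed. Some genes that this rule names are not reported here. The members and lists were chosen with earlier results of these data known. Alternatives were other pseudocounts, filters and scalings, a replicate block and leaving out each library; limma-voom on recovered reads was chosen after seeing the data. The main limma fit was first run on simulated data, and the alternatives were not.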

Additional observations from a re-analysis of the deposited data

How the results depend on the processing

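Of the 31 calls among members, 24 held under all 13 alternatives; HK1, GPI, TPI1, GAPDH, PGAM1, PFKFB3 and PDK1 did not. Over all genes, 2476 falls became 1453 after median-of-ratios scaling and 3745 with the replicate number as a block, while all calls numbered 3868, and 2411 to 3606 without 1 library (falls, 1387 to 2273), the fewest without YAP replicate 1. Rises among the HIF regulators numbered 3, but 6 after median-of-ratios scaling, 6 with the replicate block and 3 to 6 without 1 library. With the replicate block 4 members were lower, 2 of them other HIF targets (NDRG1 and BHLHE40), in place of 2 and 0; without 1 library, other HIF targets gave 0 to 1 falls. Leave-one-out rises were 6 to 9 for glycolytic enzymes and 3 to 5 for transporters and flux regulators. The sign of ENO1 turned within a leave-one-out range of -0.028 to 0.096, and that of the P4HA2 to P4HA1 ratio within -0.011 to 0.238. The cause of these shifts was not tested. Libraries with equal numbers correlated in their deviations at -0.018, 0.591 and 0.597. YAP replicate 2 against control replicate 3 gave -0.62, and YAP replicate 3 against control replicate 2 gave -0.563. The main fit did not pair libraries, because the labels do not say that a number marks a shared culture. Whether equal numbers mark a shared batch was not tested. The count tests of edgeR and DESeq2 on recovered reads were not run; limma-voom on those reads gave 29 higher and 2 lower members. Depth limits CA9, with at most 8 reads, and ANKRD37.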

Other observations

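The pathway annotation deposited with the table names further genes of the same pathways; it was used after the values were seen. Of the genes it assigns to glycolysis and gluconeogenesis, 29 tested genes were not members, and 6 of these rose and 8 fell in limma (8 and 3 with median-of-ratios scaling). Of its HIF signalling pathway, 60 tested genes were not members, and 14 rose and 11 fell (18 and 8 after median-of-ratios scaling). Their median log2 changes were -0.08 and -0.04, against 0.26 and 0.345 for the 16 and 22 members in the same pathways and -0.10 for all tested genes. Of 108 tested genes of oxidative phosphorylation, 3 rose and 31 fell (4 and 13 after median-of-ratios scaling), with a median log2 change of -0.19. Of all tested genes 12.9% rose and 23.0% fell (16.1% and 13.5% after median-of-ratios scaling). The share of falls in oxidative phosphorylation was near that of all genes, and below it after that scaling. The share of rises in that pathway was below that of all genes before and after the scaling. After it the median log2 change of the pathway was -0.10, against -0.02 for all tested genes.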
